A study of Sus scrofa with 12 samples.

Results

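In porcine arterial endothelial cells (ECs), 5 genes differed from physiological flow in the same direction at low and at supra-high shear stress: IL33, CPNE8 and GPNMB were lower, and CXCL12 and MYCN were higher. They were chosen by this readout. A gene was a member when it changed at least 2-fold with an adjusted p under 0.05 in the same direction at 2 vs. 30 dyne/cm2 and at 80 vs. 30 dyne/cm2, within replicate numbers. All 5 were found by their Ensembl gene identifiers among the 21153 genes of the table, and all 5 passed the filter on low counts in both comparisons. Of 11042 genes tested in both comparisons, 5 (0.0453%) met this rule, while 147 (1.33%) passed both thresholds in opposite directions. The changes at 2 and 80 dyne/cm2 are what chose the members, so they are described here without a test.

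The 5 genes belong to different systems. IL33 is an interleukin-1 family cytokine that resident ECs keep in the nucleus and release when damaged, and its receptor is ST2, the product of IL1RL1, together with the co-receptor IL1RAP. CXCL12 is a chemokine that attracts leukocytes and progenitor cells through CXCR4 and is cleared by the scavenger receptor ACKR3. MYCN is a transcription factor of the MYC family, which binds DNA as a pair with MAX and drives growth and ribosome genes. GPNMB is a transmembrane glycoprotein known from macrophages and pigment cells, where MITF activates its gene. CPNE8 is a copine, a family of proteins that bind membrane phospholipids when calcium rises.

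RNA came from 12 cultures of primary ECs of 3 donor pigs, each under laminar flow for 48 h. Every donor, named by its replicate number, gave 1 culture at 2 dyne/cm2 (aneurysmal low), 1 at 80 dyne/cm2 (aneurysmal supra-high) and 2 at the physiological 30 dyne/cm2, called set 1 and set 2. The labels call the cells aortic and the methods coronary. The design text places one set at 30 dyne/cm2 in the type of flow slide used at 2 dyne/cm2 and the other in that used at 80 dyne/cm2, with different seeding numbers, whereas the methods name a single slide type. The sample labels do not settle which set is which. The rule for the members sets 2 dyne/cm2 against set 1 and 80 dyne/cm2 against set 2, and each gene is also given against the other set. Libraries held between 29606854 and 41058902 reads on genes. Levels are CPM, the counts scaled to a common library size by edgeR's TMM method. They are not per gene length, so levels of different genes are not compared.

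The cultures carried endothelial markers throughout. The summed level of the 8 endothelial markers found in the table, among them PECAM1, CDH5, TEK and ERG, reached 4945 CPM or more in each library. Markers of other cells were uneven. Of the 8 leukocyte and macrophage markers, PTPRC and TYROBP had at most 2 counts in any library and LYZ at most 3. AIF1 had 0 to 6 counts, ITGAM 3 to 15, CSF1R 21 to 38, CD14 39 to 166 and CD68 188 to 807. Of the 6 smooth muscle markers, DES had 0 counts in all libraries and ACTA2 at most 17, but SMTN had 1401 to 3209. The 5 fibroblast markers summed to between 13.6 and 71.1 CPM at 2 dyne/cm2 and between 4.13 and 20.2 CPM in set 1, and of 4 tested PDGFRA and PDGFRB were up-regulated. The other 2 tested were COL1A1, with a log2 fold change of 1.44 (edgeR adjusted p = 0.0590), and LUM with -0.11 (0.763). Without the replicate block PDGFRA and PDGFRB were not called (edgeR adjusted p = 0.0949 and 0.116). Against set 2 PDGFRA was not called (0.116), whereas PDGFRB (1.70, adjusted p = 0.0206) and COL1A1 (1.88, adjusted p = 0.0148) were. The fibroblast sum was between 3.01 and 11.2 CPM at 80 dyne/cm2, against 3.34 to 18.0 CPM in set 2, and 0 of 3 tested were called. The endothelial sum was lower at 2 dyne/cm2 (4945 to 5848 CPM) than in set 1 (7004 to 7940 CPM) and higher at 80 dyne/cm2 (8268 to 8568 CPM) than in set 2 (6544 to 7638 CPM). Of the 8 tested, only TEK was called at 2 dyne/cm2, with a log2 fold change of -2.95 (edgeR adjusted p = 0.00479), against 9.6% of all genes. There 7 were lower and 1 higher. The higher one was ROBO4 (0.50, adjusted p = 0.0251). Of the lower ones, KDR had -1.27 (0.0609), PECAM1 -0.71 (0.0346) and ESAM -0.56 (0.0179). ERG had -0.22 (0.134), TIE1 -0.18 (0.255) and CDH5 -0.11 (0.521). At 80 dyne/cm2 7 were higher and 1 lower, and 0 of 8 were called. The largest change there was that of KDR (0.49, adjusted p = 0.0231). In bulk RNA, fewer cells of a type and less RNA per cell cannot be told apart.

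IL33 (ENSSSCG00000005203, chromosome 1, 215899830 to 215941944 on Sscrofa11.1) was the most deeply counted member, with at least 3875 reads in each library. At 2 dyne/cm2 its level was 113, 153 and 129.9 CPM in replicates 1, 2 and 3, and in set 1 it was 572, 438 and 274 CPM. In all 3 donors the culture at low shear stress lay below its control, and the ranges did not overlap. Supra-high shear stress gave IL33 236, 236 and 347 CPM, against 664, 709 and 753 CPM in set 2. These ranges were also apart, with every supra-high culture below every control of its set. The log2 fold change was -1.64 (standard error 0.25) at 2 dyne/cm2 and -1.39 (standard error 0.12) at 80 dyne/cm2. Within donors IL33 was 5.05-, 2.86- and 2.11-fold lower at 2 dyne/cm2 and 2.81-, 3.004- and 2.17-fold lower at 80 dyne/cm2.

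The order of the IL33 means was 132 ± 19.9 CPM (SD, n = 3) at 2 dyne/cm2, 273 ± 63.9 at 80 dyne/cm2, 428 ± 149 in set 1 and 709 ± 44.7 in set 2. The cultures at 2 and 80 dyne/cm2 did not overlap, and IL33 was higher at 80 than at 2 dyne/cm2 by a log2 difference of 1.03 ± 0.40 (SD, n = 3) within donors. The range at 80 dyne/cm2 overlapped set 1, in which replicate 3 was at 274 CPM. The 2 sets at 30 dyne/cm2 did not overlap for IL33, which also holds for 10.4% of the genes tested.

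CXCL12 (ENSSSCG00000034973, chromosome 14, 91516383 to 91543857), the second secreted signal of the group, was rare in these libraries, with 7 to 206 reads each. At 2 dyne/cm2 it had 1.18, 4.42 and 0.704 CPM in replicates 1 to 3, and in set 1 0.565, 1.22 and 0.209 CPM. Each donor had more CXCL12 at low shear stress, but the groups overlapped because the donors were far apart. Under supra-high shear stress the levels were 2.85, 6.33 and 0.434 CPM, against 0.967, 1.61 and 0.179 CPM in set 2. Again each donor was higher and the groups overlapped. The log2 fold change was 1.56 (standard error 0.27) at 2 dyne/cm2 and 1.73 (standard error 0.23) at 80 dyne/cm2.

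The counts behind CXCL12 limit its precision, above all in replicate 3, which had 7 reads in both controls, 21 at 2 dyne/cm2 and 14 at 80 dyne/cm2. The ratio in that donor was 3.36 at 2 dyne/cm2, with an exact 95% interval of 1.38 to 9.36 that covers counting error only. At 80 dyne/cm2 it was 2.43 with an interval of 0.918 to 7.11, so a difference in that donor was not detectable at this depth. In replicate 2, with 136 and 41 reads, the ratio at 2 dyne/cm2 was 3.62 (2.53 to 5.26). The means ran from 0.665 ± 0.513 CPM (SD, n = 3) in set 1 and 0.920 ± 0.719 in set 2 to 2.10 ± 2.02 at 2 dyne/cm2 and 3.21 ± 2.96 at 80 dyne/cm2. No 2 neighbours in that order differed beyond their spread. Fibroblasts are a known source of CXCL12: their marker sum was higher at 2 dyne/cm2 than in set 1 in its highest library, whereas at 80 dyne/cm2, where CXCL12 was also higher, the highest sum lay below that of set 2. The part of such cells in the CXCL12 level was not tested.

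MYCN (ENSSSCG00000008618, chromosome 3, 121543201 to 121549678) had 39 to 945 reads per library. Its level at 2 dyne/cm2 was 3.32, 20.2 and 10.8 CPM in replicates 1 to 3, against 1.35, 1.16 and 3.08 CPM in set 1. All cultures at low shear stress were above all 3 controls, and the donors differed widely in the size of the step, which was 2.46-, 17.4- and 3.51-fold. The cultures at 80 dyne/cm2 had 3.86, 6.30 and 29.3 CPM, against 2.35, 2.13 and 12.7 CPM in set 2. The ranges overlapped there, because replicate 3 of set 2 was above 2 of the supra-high cultures, although each donor was higher than its own control by 1.64-, 2.96- and 2.31-fold. The log2 fold change was 2.38 (standard error 0.58) at 2 dyne/cm2 and 1.18 (standard error 0.17) at 80 dyne/cm2. The means were 1.86 ± 1.06 CPM in set 1, 5.72 ± 6.03 in set 2, 11.4 ± 8.46 at 2 dyne/cm2 and 13.1 ± 14.03 at 80 dyne/cm2 (SD, n = 3). Neighbours in this order overlapped, and between 80 and 2 dyne/cm2 the donors went in different directions, with log2 differences of 0.22, -1.68 and 1.44.

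GPNMB (ENSSSCG00000032241, chromosome 9, 92037428 to 92071501) had 1304 to 8659 reads per library and the most even response to low shear stress of the 5 genes. At 2 dyne/cm2 it had 58.9, 77.7 and 63.0 CPM in replicates 1 to 3, against 142, 177 and 179.5 CPM in set 1. The groups were far apart, and the fold decreases of 2.41, 2.28 and 2.85 were close to each other. Supra-high cultures had 34.5, 62.0 and 66.9 CPM, against 66.0, 127 and 221 CPM in set 2. Each donor was lower, by 1.92-, 2.05- and 3.30-fold, but the ranges touched, since replicate 1 of set 2 (66.0 CPM) was just below replicate 3 at 80 dyne/cm2 (66.9 CPM). The log2 fold changes were -1.32 (standard error 0.10) and -1.22 (standard error 0.15). Means were 54.5 ± 17.5 CPM at 80 dyne/cm2, 66.5 ± 9.92 at 2 dyne/cm2, 138 ± 78.0 in set 2 and 166 ± 21.0 in set 1 (SD, n = 3). All neighbours in this order overlapped. Macrophages are rich in GPNMB. The leukocyte markers PTPRC and TYROBP were at or near 0 in every library, while CSF1R, a macrophage receptor, had 21 to 38 counts. The sum of all 8 leukocyte and macrophage markers was nevertheless lower at 2 dyne/cm2 (8.43 to 11.8 CPM) than in set 1 (15.4 to 22.9 CPM). Of the 2 markers tested, CD68, a lysosomal protein, was down-regulated with a log2 fold change of -1.17 (edgeR adjusted p = 0.00961). CD14, the other, had 0.11 (adjusted p = 0.798). CD68 went from 14.99 ± 3.19 CPM in set 1 to 6.70 ± 1.67 at 2 dyne/cm2 (SD, n = 3), so the lower sum came mainly from CD68. At 80 dyne/cm2 the sum was 13.9 to 28.7 CPM, against 13.1 to 24.5 CPM in set 2, and 0 of 2 were called. The part of these markers in the GPNMB level was not tested.

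CPNE8 (ENSSSCG00000000778, chromosome 5, 70391854 to 70660213) had 2 to 328 reads per library and, of the 5 genes, the largest difference at 2 dyne/cm2 and the smallest at 80 dyne/cm2. At 2 dyne/cm2 its level was 0.0514, 1.07 and 0.134 CPM in replicates 1 to 3, against 1.30, 4.77 and 1.97 CPM in set 1. Every culture at low shear stress lay below every control. CPNE8 passed the filter in this comparison through set 1, where every library reached 1 CPM. At 2 dyne/cm2 only replicate 2 did, so the filter favoured this decrease. In replicate 1 this rested on 2 reads against 53, and the ratio of set 1 to 2 dyne/cm2 was 25.3 with an exact 95% counting interval of 6.67 to 214. In replicate 3 it was 14.7 (5.49 to 55.6), from 4 reads against 66, and in replicate 2 it was 4.45 (3.04 to 6.68). CPNE8 at 80 dyne/cm2 had 0.396, 3.90 and 2.26 CPM, against 0.801, 9.99 and 3.80 CPM in set 2. Each donor was lower, by 2.02-, 2.56- and 1.68-fold, while the groups overlapped. The log2 fold change was -3.01 (standard error 0.48) at 2 dyne/cm2 and -1.05 (standard error 0.20) at 80 dyne/cm2.

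The means of CPNE8 were 0.419 ± 0.567 CPM at 2 dyne/cm2, 2.19 ± 1.75 at 80 dyne/cm2, 2.68 ± 1.84 in set 1 and 4.86 ± 4.69 in set 2 (SD, n = 3). Neighbours overlapped in their ranges. Within donors CPNE8 was nevertheless higher at 80 than at 2 dyne/cm2 in all 3, with log2 differences of 2.95, 1.86 and 4.08. IL33 and CPNE8 thus had less at 2 than at 80 dyne/cm2 in each donor, whereas CXCL12, MYCN and GPNMB had no common order of 2 and 80 dyne/cm2 over the donors. IL33 was the 1 member of 5 whose ranges at 2 and 80 dyne/cm2 were apart, as they were for 38.2% of the genes tested. Where the slide types differ as the design text has it, slide type and shear stress cannot be told apart between 2 and 80 dyne/cm2.

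Over the 5 genes, the ranges at 2 dyne/cm2 and in set 1 were apart for 4 (37.7% of all genes tested), and those at 80 dyne/cm2 and in set 2 for 1, IL33 (15%). For 0 of 5 did all 6 cultures at 30 dyne/cm2 lie on one side of all 6 others, a pattern that 0.589% of genes had. Because the comparisons chose the genes, nothing is read from these counts.

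**Figure D1:**
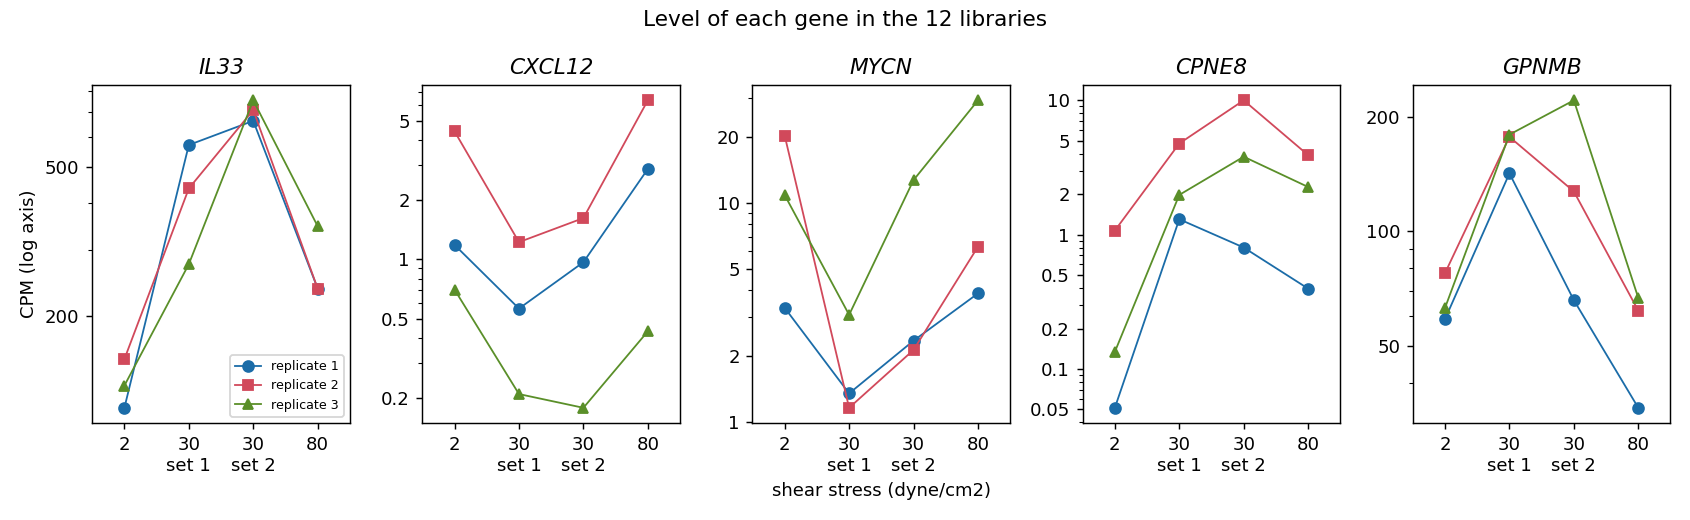
Level (CPM, log axis) of each gene in the 12 libraries, by shear stress in dyne/cm2, with 1 coloured line per replicate number (donor). In most donors IL33, CPNE8 and GPNMB are highest and CXCL12 and MYCN lowest at 30 dyne/cm2, with IL33, MYCN and CPNE8 of replicate 3 as exceptions in 1 set. For IL33 the 3 donors keep no common order and are widest apart in set 1 (274 to 572 CPM). For CXCL12 and CPNE8 they run apart at every shear stress.

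The thresholds of the rule decide how many genes are in the group. At 2 vs. 30 dyne/cm2, 9.6% of 11226 genes tested passed them, 5.06% upwards and 4.54% downwards. At 80 vs. 30 dyne/cm2 this was 2.2% of 11187 genes, 1.14% upwards and 1.05% downwards. Without the replicate number as a block, 5.66% passed at 2 dyne/cm2 (2.65% upwards and 3% downwards) and 0% at 80 dyne/cm2, where edgeR gave 929 genes an unadjusted p under 0.05, and no member met the rule. Of the genes tested in both, 34.7% had fold changes of the same sign. CPNE8 was the member nearest to the limit, at -1.05 in the comparison at 80 dyne/cm2, where the limit is 1, followed by MYCN at 1.18 and GPNMB at -1.22. CXCL12, whose smaller change was 1.56, was farthest inside.

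Just outside the limit lay genes with an adjusted p under 0.05 in both comparisons and a change under 2-fold in at least 1 of them. Among the nearest with a symbol were RALGAPA2 (log2 fold changes 0.85 and 0.66), a subunit of a GTPase-activating complex for Ral proteins, and TLL1 (-0.63 and -0.75), a protease that processes procollagens. GNAI1 (-0.63 and -0.86), an inhibitory G protein subunit, RPS6KA2 (0.71 and 0.57), a ribosomal S6 kinase, and CTSH (-0.83 and -0.57), a lysosomal cathepsin, came next. A gene without a symbol, ENSSSCG00000003080, lay nearer to the limit than these 5, with 0.75 and 1.11. Against the other set at 30 dyne/cm2, GNAI1 had -0.10 and -1.40, so that its change at 2 dyne/cm2 was close to 0. RALGAPA2 had 0.83 and 0.68 there, TLL1 -0.61 and -0.78, RPS6KA2 0.81 and 0.46, and CTSH -0.72 and -0.69. With the adjusted p alone, 20 genes (0.181%) changed alike, 7 upwards and 13 downwards, including the 5 members, and 548 (4.96%) went in opposite directions. The plot of both fold changes shows how sparsely the same-direction quadrants are filled beyond 2-fold.

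**Figure D2:**
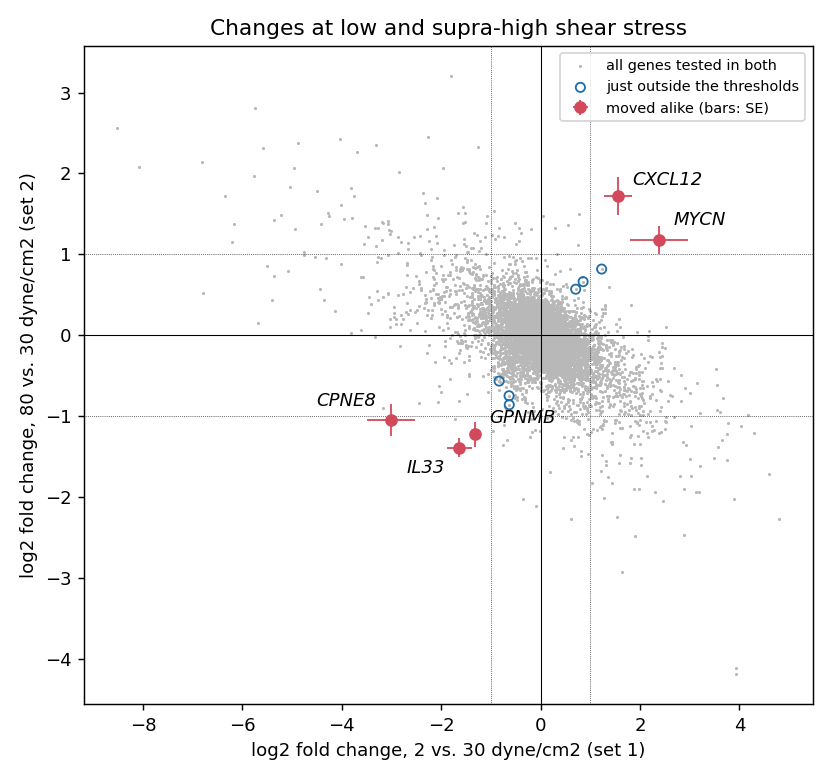
Log2 fold change at 80 vs. 30 dyne/cm2 (set 2) against that at 2 vs. 30 dyne/cm2 (set 1) for the 11042 genes tested in both (grey), with the 5 members (red, bars are standard errors) and the 6 genes with a symbol just outside the thresholds (blue circles). Dotted lines mark 2-fold; IL33, CPNE8 and GPNMB sit at the lower left and CXCL12 and MYCN at the upper right, where few other genes lie.

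Setting each condition against the other set at 30 dyne/cm2 kept the sign of all 5 genes in both comparisons but changed the sizes. With these controls no gene passed both thresholds in the same direction in edgeR, and 4 did so at an unadjusted p under 0.05 and 2-fold. IL33 was then lower, with fold changes of -2.44 (standard error 0.11) for low and -0.61 (standard error 0.29) for supra-high shear stress on the log2 scale, where replicate 3 had 1.26 times the level of its control. CPNE8 had -3.70 (standard error 0.35) and -0.46 (standard error 0.36), and its replicate 3 at 80 dyne/cm2 was likewise above the control, at 1.15 times. For both genes the supra-high change was thus within 2-fold against set 1. GPNMB moved the other way, to -0.90 (standard error 0.32) at 2 dyne/cm2 and -1.65 (standard error 0.15) at 80 dyne/cm2.

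CXCL12 had log2 fold changes of 1.13 (standard error 0.35) at 2 dyne/cm2 against set 2 and 2.14 (standard error 0.32) at 80 dyne/cm2 against set 1. MYCN had 1.07 (standard error 0.72) and 2.46 (standard error 0.34), and its replicate 3 at 2 dyne/cm2 had only 0.854 times the level of set 2. Counting both sets, 12 within-donor differences per gene can be formed. CXCL12 was higher in 12 of 12 and GPNMB lower in 12 of 12, a pattern that 2.94% of the tested genes had, while IL33 and CPNE8 were lower in 11 of 12 and MYCN higher in 11 of 12. The differences share libraries and are not independent. They include the 6 against the assigned sets, which chose the genes and had 1 direction in all 5 members. Nothing is therefore read from the comparison with 2.94%.

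The 2 sets at 30 dyne/cm2 differed from each other for some members. IL33 was higher in set 2 than in set 1 in all 3 donors, by log2 differences of 0.21, 0.70 and 1.46. MYCN was also higher in set 2 in all 3, by 0.80, 0.88 and 2.04. The largest of these, in replicate 3, exceeded the change of that donor from set 1 to 2 dyne/cm2 (1.81). CXCL12, CPNE8 and GPNMB had differences of both signs between the sets, with means of 0.32 ± 0.51, 0.44 ± 0.99 and -0.43 ± 0.70 (SD, n = 3).

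**Figure D3:**
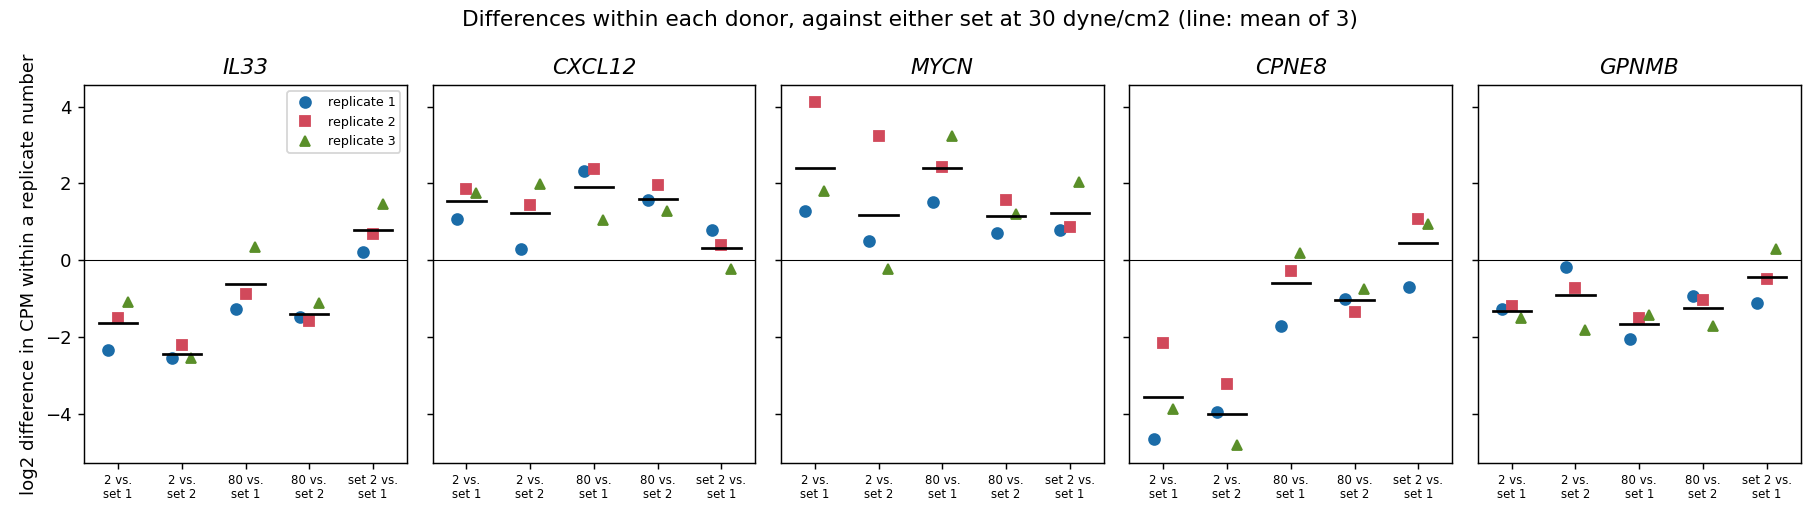
Log2 difference in CPM within each replicate number for the 5 genes, for 2 and 80 dyne/cm2 against either set at 30 dyne/cm2 and for set 2 against set 1; points are donors and black lines the mean of 3. GPNMB lies below 0 and CXCL12 above 0 in all 4 comparisons with 30 dyne/cm2, while IL33 and CPNE8 have 1 donor above 0 at 80 dyne/cm2 against set 1.

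The difference between donors was not used to choose the genes and could be tested, over all 12 libraries with the group as a term (edgeR quasi-likelihood test of the replicate number, adjusted over 11568 genes, of which 42.2% passed an adjusted p of 0.05). CXCL12 differed between donors (adjusted p = 2.5e-04). Replicate 2 was highest and replicate 3 lowest in each of the 4 groups, with means over the 4 cultures of 3.40 and 0.381 CPM. CPNE8 also differed (adjusted p = 9.3e-04), with replicate 2 highest (4.93 CPM) and replicate 1 lowest (0.638 CPM) in each group. For IL33 the adjusted p was 0.992, and the donor means of 396, 384 and 376 CPM lay close together.

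MYCN (adjusted p = 0.0238 in edgeR) had donor means of 2.72, 7.45 and 13.97 CPM, and GPNMB (adjusted p = 0.0397) 75.3, 111 and 133 CPM, with replicate 1 lowest in each group for GPNMB. These 2 calls were less firm. Without set 2 the adjusted p was 0.105 for MYCN and 0.0827 for GPNMB, without the cultures at 80 dyne/cm2 it was 0.142 and 0.168, and without set 1 it was 0.0612 for GPNMB. CXCL12 and CPNE8 kept theirs whichever group was left out. Donor differences made up 66.1% of the variance in log2 CPM for CXCL12, 43.5% in CPNE8, 34.6% in MYCN, 18.2% in GPNMB and 0.0863% in IL33, against a mean of 35.3% over the genes tested. The shares of groups, donors and rest are parts of 1 total, and the members were chosen for differences between groups. That choice lowers their donor share, so nothing is read from the comparison with 35.3%. Each donor is 1 pig, so these values cover 3 animals only. By the methods, cultures were compared within a donor and cell passage, in independent experiments. Animal, passage and experiment therefore cannot be told apart in the replicate number.

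**Figure D4:**
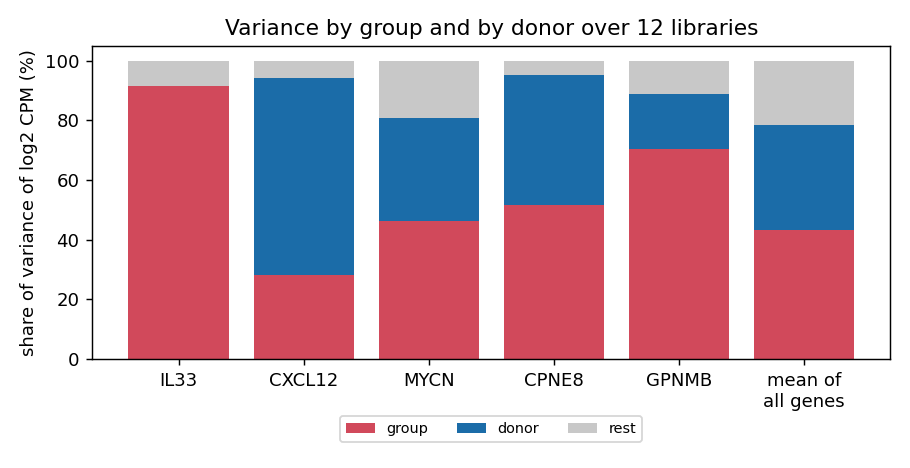
Share of the variance of log2 CPM over the 12 libraries that lies between the 4 groups (red), between the 3 donors (blue) and in the rest (grey), for each member and as a mean over all genes tested. IL33 has 91.4% between groups and almost none between donors, and CXCL12 has 66.1% between donors. The choice of the members favours a large share between groups.

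With each donor's mean removed, the 5 genes formed 2 close pairs across the 12 libraries. The Pearson correlation was 0.92 between IL33 and CPNE8 and -0.92 between CXCL12 and GPNMB. The other correlations had sizes between 0.41 and 0.69, and MYCN was closest to CXCL12 (0.69). All libraries enter each value, including those that chose the genes, so these are descriptions. Among 9910 other genes with at least 1 CPM, the 3 most like IL33 were KMT2E, RALGAPA1 and EFNA1, an ephrin ligand, with r of 0.94 each. For CPNE8 they were BMPER, a secreted binder of bone morphogenetic proteins, EFNA1 and SLC10A7, with r of 0.98, 0.97 and 0.97.

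Among the nearest genes to GPNMB were RPP30 and PANK2, with r of 0.93 and 0.92. For CXCL12 they included TUBGCP6 and SH2B1, each with r of 0.96. MYCN was followed by TSC2, a brake on mTOR signalling, SHISAL2B and SLC9A8, with r between 0.89 and 0.91. These genes changed far less than the members: of the IL33 neighbours EFNA1 changed most, with log2 fold changes of -0.68 and -0.20, and BMPER reached -0.93 and -0.40.

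The receptors and partners of the 5 genes came from lists written from general knowledge. Of all genes tested, 9.6% were called at 2 dyne/cm2 and 2.2% at 80 dyne/cm2. The counts of called list genes below are descriptions and are not read as more or fewer than these shares. Of 14 genes written for IL33 and the interleukin-1 family, 11 were in the table and 9 were tested at 2 dyne/cm2, where 2 were down-regulated (median log2 fold change -0.17, against 0.003 for all genes tested). IL1RL1, which encodes the IL33 receptor ST2, had at most 1 read in any library. Its co-receptor IL1RAP was down-regulated at 2 dyne/cm2 (log2 fold change -1.35 ± 0.22 standard error, edgeR adjusted p = 0.0171) and had 0.36 (standard error 0.15, adjusted p = 0.185) at 80 dyne/cm2. The IL1RAP call was lost without replicate 2 (adjusted p = 0.0620) and without the replicate block (0.0698), and against set 2 the change was -0.90. SIGIRR, an inhibitory receptor of this family, was down-regulated at 2 dyne/cm2 from 19.96 ± 5.31 to 2.999 ± 0.741 CPM (SD, n = 3) (log2 fold change -2.71, standard error 0.31, edgeR adjusted p = 0.00835).

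At 80 dyne/cm2, 1 of 10 tested genes of the interleukin-1 list was called, with a median of 0.23 against -0.006 for all genes. This was IL1A, a second cytokine of the family, at 1.00 (standard error 0.21, edgeR adjusted p = 0.0314). Its change was -0.51 against set 1, its call was not made by DESeq2 (adjusted p = 0.671), and it did not pass the filter without replicate 1 or 2. IL1R1, which binds IL1A, had -0.83 there (adjusted p = 0.0141), under the 2-fold limit.

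For CXCL12, 8 of 11 listed receptors, regulators and chemokines were tested. CXCR4 had 66.0 ± 13.7 CPM in set 1 and 42.5 ± 22.2 at 2 dyne/cm2 (SD, n = 3) (log2 fold change -0.77, standard error 0.27, edgeR adjusted p = 0.0960). Its change at 80 dyne/cm2 was -0.36 (standard error 0.14, adjusted p = 0.155). ACKR3 had -0.28 (adjusted p = 0.448) and -0.17 (adjusted p = 0.485). Neither receptor was called in these fits, but DESeq2 gave CXCR4 an adjusted p of 0.0188 at 2 dyne/cm2 (-0.77), and without replicate 1 edgeR gave it 8.6e-04 at 80 dyne/cm2 (-0.50). DPP4, a protease that inactivates CXCL12, was down-regulated at 2 dyne/cm2 from 8.12 ± 2.44 to 0.586 ± 0.324 CPM (log2 fold change -3.82, standard error 0.25, adjusted p = 0.00366). Its change at 80 dyne/cm2 was 0.03 (standard error 0.22, adjusted p = 0.953). DPP4 passed the filter in the comparison at 2 dyne/cm2 only through set 1, where it was high. With any 1 donor left out it did not pass. The filter thus favoured the DPP4 call, and nothing is read from it.

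CXCL14, another chemokine, was the list's second called gene at 2 dyne/cm2 and its only one at 80 dyne/cm2, in opposite directions. It was up-regulated by 3.13 on the log2 scale (standard error 0.15, edgeR adjusted p = 0.00293) and down-regulated with a change of -1.93 (standard error 0.46, adjusted p = 0.0454). The decrease lost its call without replicate 3 (adjusted p = 0.150) and against set 1 (0.331), it was not tested without replicate 1 or 2, and the increase without the replicate block (0.133). The medians of the list were -0.20 and -0.07.

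In the MYC and MAX network 11 of 12 genes were tested, and 1 was called at 2 dyne/cm2 and 0 at 80 dyne/cm2 (edgeR, both thresholds). MYC had log2 fold changes of 0.15 (adjusted p = 0.737) and -0.06 (adjusted p = 0.762), and MAX, the partner of MYCN, 0.05 (adjusted p = 0.650) and -0.03 (adjusted p = 0.864). The called gene was MLXIP, a glucose-sensing factor that pairs with MLX, at 1.15 (standard error 0.09, adjusted p = 0.00489), or 0.79 against set 2. Of 16 MYC target genes 14 were tested. Only PPAT, an enzyme of purine synthesis, was called at 2 dyne/cm2, with 1.61 (standard error 0.18, adjusted p = 0.00777), and none at 80 dyne/cm2. The medians of the targets were -0.16 and -0.04, with 3 higher and 11 lower at 2 dyne/cm2 and 6 higher and 8 lower at 80 dyne/cm2.

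Of 8 other copines, 5 were in the table and 2 were tested, of which 0 were called in either comparison (edgeR, both thresholds). CPNE2 was lower at 2 dyne/cm2 by less than 2-fold (log2 fold change -0.84, standard error 0.08, adjusted p = 0.00584), and had 0.03 (adjusted p = 0.871) at 80 dyne/cm2. CPNE3 had 0.11 (adjusted p = 0.333) and -0.15 (adjusted p = 0.325). CPNE4 and CPNE5 had at most 29 and 20 reads in a library, and CPNE6 had 0 in all.

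Of 24 genes listed with GPNMB (its MITF/TFE regulators and lysosomal genes), 20 were tested. At 2 dyne/cm2, 1 was up-regulated and 2 down-regulated, with a median of -0.19, and at 80 dyne/cm2 0 were called, with a median of -0.07 (edgeR, both thresholds). MITF, the known activator of GPNMB, was up-regulated at 2 dyne/cm2 from 3.58 ± 0.832 to 11.5 ± 2.09 CPM (log2 fold change 1.70, standard error 0.15, adjusted p = 0.00588), while GPNMB was lower there. MITF at 80 dyne/cm2 had -0.42 (standard error 0.19, adjusted p = 0.202). TFEB and TFE3, which drive lysosomal genes, had -0.28 (adjusted p = 0.144) and -0.31 (adjusted p = 0.0678) at 2 dyne/cm2, and 0.20 (adjusted p = 0.249) and 0.27 (adjusted p = 0.0803) at 80 dyne/cm2. The down-regulated genes were NPC1, which exports cholesterol from lysosomes (-1.48, adjusted p = 0.00905), and GLA, a lysosomal galactosidase (-1.12, adjusted p = 0.00665, or -0.84 against set 2).

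Of 11 cell cycle genes, 6 were tested at 2 dyne/cm2 and 7 at 80 dyne/cm2. Low shear stress gave 5 lower and 1 higher value (median log2 fold change -0.49), and at 80 dyne/cm2 6 were lower and 1 higher (median -0.27). Only CDKN1B, a cell cycle inhibitor, was called at 2 dyne/cm2 (log2 fold change 1.41, standard error 0.19, edgeR adjusted p = 0.0112), or 0.86 against set 2. It had -0.46 (standard error 0.10, adjusted p = 0.0311) at 80 dyne/cm2, where none of the list passed both thresholds. The 2 responses differed (edgeR, adjusted p under 0.05) for 13 of 19 named list genes tested, and for 37.1% of all genes. Of the 13, 10 were called at 2 dyne/cm2 from the same libraries, which favours a difference, so nothing is read from this count. None of the lists held a gene that was called in the same direction in both comparisons. Only 0.0453% of the genes tested in both were, so nothing is read from this either.

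**Figure D5:**
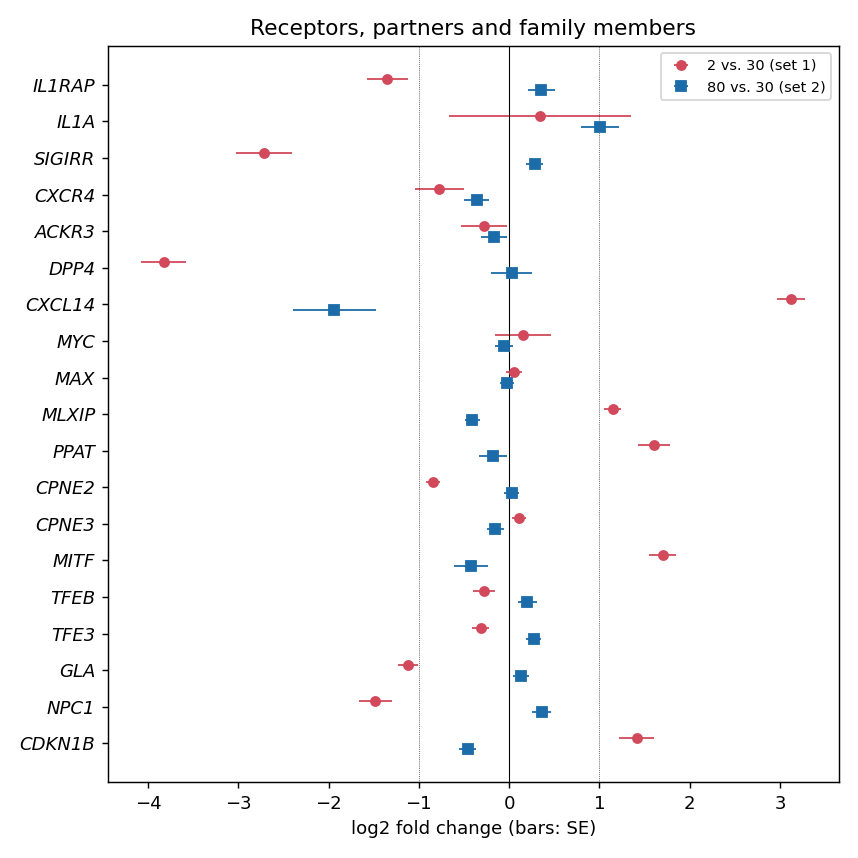
Log2 fold changes with standard errors of the receptors, partners and family members that were named and tested in both comparisons, at 2 vs. 30 dyne/cm2 (set 1, red circles) and at 80 vs. 30 dyne/cm2 (set 2, blue squares); dotted lines mark 2-fold. CXCL14 lies on opposite sides of 0 beyond 2-fold, and no gene lies beyond 2-fold on the same side in both.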

How the data were processed

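RNA of 12 cultures was sequenced by the authors as single-end reads of 100 nt (TruSeq). Reads were aligned by STAR to Sscrofa11.1 (Ensembl release 96), those with several locations were dropped, and featureCounts summed the rest over each gene's exons. The deposited values are raw counts per gene, not normalized. Use of strand is not stated, so reads of an overlapping antisense transcript cannot be told apart. The submitters' processing notes also name CASAVA 1.8.2, STAR 2.4 and featureCounts 1.4.6.

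The members, lists and tests were chosen with earlier results of these data known. Symbols were matched by Ensembl identifier; gene positions are those of RefSeq for the same symbol on Sscrofa11.1. The tool was edgeR 4.0.16 under R 4.3.3 (TMM, quasi-likelihood test, Benjamini-Hochberg adjustment over all genes tested). The replicate number was a block, because the methods compare cultures of the same donor and passage. After removal of group means, 18 pairs of libraries with the same number correlated at 0.63 to 0.87 and 36 other pairs at -0.55 to -0.18. A gene was tested when 3 or more of the libraries compared reached 1 CPM, in place of the study's filter at 1 RPKM, since no gene lengths were given. A call needs a 2-fold change besides adjusted p < 0.05. Each standard error is the log2 fold change divided by the square root of F. Within-donor ratios use CPM; their intervals are exact binomial at 95%.

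The named genes were the members, the 6 genes with a symbol nearest outside the thresholds, the 3 such genes most correlated with each member (log2 of CPM + 0.1), fixed receptors and partners, and up to 5 called genes per list; some genes that this rule names are not reported here. Alternatives were RLE scaling, DESeq2 1.42.0, other filters, no replicate block, 1 fit over 12 libraries, the other or both control sets, other thresholds and each donor left out. The procedure was tested on simulated data. Sequences were not used here.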

Additional observations from a re-analysis of the deposited data

Results flagged for a closer look

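The response to shear stress differed between the comparisons for 13 of 19 tested receptors, partners and family members that were named. The value is the log2 fold change at 80 dyne/cm2 minus that at 2 dyne/cm2, tested over 12 libraries (edgeR, adjusted p under 0.05, which 37.1% of all genes tested reached). Since 10 of the 13 had been called at 2 dyne/cm2 in the same libraries, the choice of genes favoured a difference, and the count is not read against that share. It was positive for DPP4 (3.78), SIGIRR (2.96), NPC1 (1.8), IL1RAP (1.72), GLA (1.25), CPNE2 (0.86), TFE3 (0.58) and TFEB (0.48). It was negative for CXCL14 (-4.98), MITF (-2.11), CDKN1B (-1.86), PPAT (-1.77) and MLXIP (-1.57). Against the other set at 30 dyne/cm2 it did not pass for IL1RAP (0.77, adjusted p = 0.0711) and TFEB (0.19, adjusted p = 0.417). With the exchanged sets it was -3.92 for CXCL14, -0.87 for MLXIP, -0.80 for CDKN1B and 0.67 for GLA, all with an adjusted p under 0.05. Without the replicate block CXCL14 (adjusted p = 0.183), IL1RAP (0.0776), GLA (0.0689) and TFEB (0.0739) did not pass. TFEB also did not pass without replicate 1 (0.213) or 3 (0.108), nor TFE3 without replicate 3 (0.0740). CXCR4 (0.32, adjusted p = 0.613) and ACKR3 (0.07, adjusted p = 0.895), the receptors of CXCL12, did not pass.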

How the results depend on the processing

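All 5 members kept the same sign in both comparisons under every alternative that still tested them. Of 110 recomputed fold changes, 100 moved by less than the SD between donors. The 10 that moved further all came from the choice of control, with the other set or both sets together. With the other set, every member had such a change in at least 1 comparison. The share of 100 therefore does not show that the sizes hold against either control set. How many met the rule depended on the setting. With RLE scaling, DESeq2, no filter or filterByExpr all 5 did, beside 0 to 2 other genes. With at least 10 counts in every library 3 genes did (IL33, MYCN and GPNMB), since CXCL12 and CPNE8 were not tested, and with 1 fit over 12 libraries 3 did (IL33, CXCL12 and GPNMB). Both sets together as control left 2 (CXCL12 and GPNMB), a test against a 1.5-fold change left 1 (IL33), and the adjusted p alone gave 20. With donors left out, 4, 3 and 2 members met the rule without replicates 1, 2 and 3. CXCL12 did not pass the filter without replicate 1 or 2. Nor did CPNE8 without replicate 2 or, at 80 dyne/cm2, without replicate 3. Without replicate 3 only IL33 and CXCL12 of the members were called, beside 1 other gene, CNTN3.

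Without the replicate block, 635 genes were called at 2 dyne/cm2 and 0 at 80 dyne/cm2 (edgeR, 929 at an unadjusted p under 0.05), so 0 were shared in the same direction (2 at unadjusted p and 2-fold) or in opposite directions (95). At 2 dyne/cm2 the adjusted p alone gave 2895 genes and the 1.5-fold test 676. At 80 dyne/cm2 there were 125 genes with 1 fit over 12 libraries, 24 against set 1, 84 against both sets, 940 on the adjusted p alone, 83 in the 1.5-fold test and 132 to 286 with donors left out (132 without replicate 2, 136 without replicate 3). Genes called in opposite directions numbered 88, 19, 57, 548, 42 and 61 to 129 under these settings, and genes called alike against the exchanged sets numbered 0 (4 at unadjusted p and 2-fold). Differing responses were found for 4294 genes, 1746 without the replicate block, 2568 with the sets exchanged and 1949 to 3299 with donors left out (2403 without replicate 1, 1949 without replicate 3). Donor differences were found for 4883 genes, and for 2286 (without set 2) to 4128 with 1 group left out. Of list genes, 14 were called at 2 dyne/cm2 (9 without the block) and 2 at 80 dyne/cm2 (0 without the block or against set 1). Of 15 most similar genes, 2 were found again when donor means were kept. The cause of these differences was not tested. Counts of 2 to 66 in CPNE8 and of 7 to 21 in CXCL12 in some donors limit what depth can show there.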
